A study of Mus musculus with 69 samples.

Results

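The haematoendothelial genes are 10 genes known for the earliest blood and blood vessel cells of the embryo, and they were found in the gene table by their symbols: 10 of the 55367 symbols it lists. They were grouped by role. Kdr, Tek and Tie1 encode receptor tyrosine kinases, Etv2, Tal1, Lmo2, Gata2 and Sox7 encode transcription factors or their adaptors, and Cdh5 and Pecam1 encode proteins of the junctions between endothelial cells. The members were read in 69 libraries of polyadenylated RNA from clones of E14tg2A, a line of mouse embryonic stem (mES) cells, in 23 groups of 3. At 0 h these were 3 mES clones, namely WT-emiRFP, p53KO-emiRFP and WT-mCherry, and at 48, 72, 96, 120 and 144 h they were cells sorted by colour from mosaic gastruloids, which are aggregates of mES cells that form germ layers in culture.

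WT + WT gastruloids were started from 150 WT-mCherry and 150 WT-emiRFP cells, and WT + p53KO gastruloids from 150 WT-mCherry and 25 p53KO-emiRFP cells. By the study's protocol the Wnt activator CHIR was given from 48 to 72 h. The libraries of 48 h thus stand at the start of this pulse, and the step from 48 to 72 h spans it. WT-mCherry cells carry H2B-mCherry under the EF1α promoter, and WT-emiRFP and p53KO-emiRFP cells carry H2B-emiRFP670 under the CAG promoter. Each line is 1 clone. The p53KO line is a subclone of WT-emiRFP with a homozygous frameshift in Trp53 and was selected with Nutlin-3a, so the loss of Trp53 and the history of that subclone cannot be told apart. The libraries came from 3 experiments done at different times, several gastruloids were analysed in each experiment, and the purity of the sorted cells was not checked. Of the 4 sorted populations 3 are WT: WT-emiRFP, WT-mCherry beside WT and WT-mCherry beside p53KO cells.

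In the mouse embryo, blood and endothelium arise together from Kdr-positive mesoderm. The ETS factor Etv2 starts this programme. Tal1 and Gata2 bind DNA in one complex that the LIM protein Lmo2 holds together, and this complex drives blood genes, while Sox7 and other SoxF factors act in endothelium. Kdr is the main receptor for the growth factor VEGF, Tek is the receptor for angiopoietins, and Tie1 is its partner. Cdh5 (VE-cadherin) and Pecam1 (CD31) join endothelial cells to each other. Several members are not particular to this lineage: Pecam1 is present on naive mES cells and germ cells, Sox7 in extraembryonic endoderm, and Gata2 and Tal1 in certain spinal interneurons. In bulk samples such as these, fewer cells of a type and less RNA per cell cannot be told apart.

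All 10 members are protein-coding genes in the GENCODE M21 annotation of GRCm38, the build of the deposited counts. The receptors lie at chr5:75932827-75978458 (Kdr), chr4:94739289-94874976 (Tek) and chr4:118471191-118490061 (Tie1). The factors lie at chr7:30633616-30635852 (Etv2), chr4:115056426-115071755 (Tal1), chr2:103957986-103981878 (Lmo2), chr6:88193891-88207032 (Gata2) and chr14:63943673-63950732 (Sox7), and the junction genes at chr8:104101625-104144511 (Cdh5) and chr11:106654217-106750628 (Pecam1). Tek, Tal1 and Tie1 share chromosome 4 but not a locus. Lmo2 and Cdh5 each overlap 1 gene on the opposite strand, 4931422A03Rik and Gm29682, in introns only, with 0 shared exonic bases. These 2 partners had mean counts of 21.2 and 0.174 per library, against 865 for Lmo2 and 42.1 for Cdh5.

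RefSeq promoter windows of GRCm38.p6, from 250 bases before to 50 bases after the start, were found for 6 of the 10 members (Tek, Tal1, Tie1, Kdr, Gata2 and Etv2), 8 windows in all. The 4 printed here were chosen because the results turn on these genes: Kdr, Etv2 and Tal1, the members lower in the WT neighbours of p53KO cells at both 120 and 144 h, and Tek, which was lower in p53KO cells at all 6 times. Each runs 5′ to 3′ on the gene's strand, and capitals mark, as they read on that strand, words bound by factor families that include members of the list, searched on both strands. For the ETS family, which holds Etv2, the word CCGGAA was searched, and beside it the word CAGGAA. For the GATA family, which holds Gata2, the word AGATAA was searched, and beside it the word TGATAA. For the SOX family, which holds Sox7, the word ACAATG was searched, and beside it the word ACAAAG. No 2 of the marked words overlapped.
Kdr (chr5:75978406-75978705, minus strand): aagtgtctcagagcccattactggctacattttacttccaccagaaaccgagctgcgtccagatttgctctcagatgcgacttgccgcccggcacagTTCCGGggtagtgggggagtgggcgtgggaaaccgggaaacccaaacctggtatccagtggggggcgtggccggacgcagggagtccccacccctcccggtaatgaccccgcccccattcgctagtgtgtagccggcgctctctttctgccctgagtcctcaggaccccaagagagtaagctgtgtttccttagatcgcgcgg
Etv2 (chr7:30635803-30636102, minus strand): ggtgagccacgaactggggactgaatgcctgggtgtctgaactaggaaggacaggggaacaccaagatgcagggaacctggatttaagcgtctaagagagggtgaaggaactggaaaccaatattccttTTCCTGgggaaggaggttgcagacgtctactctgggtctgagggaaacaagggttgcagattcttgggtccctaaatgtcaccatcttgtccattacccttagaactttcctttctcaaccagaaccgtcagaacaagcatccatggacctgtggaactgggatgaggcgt
Tal1 (chr4:115056176-115056475, plus strand): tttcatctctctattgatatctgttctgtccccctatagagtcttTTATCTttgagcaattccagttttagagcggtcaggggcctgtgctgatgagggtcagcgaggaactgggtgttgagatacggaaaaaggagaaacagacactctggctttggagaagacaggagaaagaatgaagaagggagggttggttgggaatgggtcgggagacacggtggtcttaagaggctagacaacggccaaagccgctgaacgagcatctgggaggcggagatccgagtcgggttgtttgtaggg
Tek (chr4:94739039-94739338, plus strand): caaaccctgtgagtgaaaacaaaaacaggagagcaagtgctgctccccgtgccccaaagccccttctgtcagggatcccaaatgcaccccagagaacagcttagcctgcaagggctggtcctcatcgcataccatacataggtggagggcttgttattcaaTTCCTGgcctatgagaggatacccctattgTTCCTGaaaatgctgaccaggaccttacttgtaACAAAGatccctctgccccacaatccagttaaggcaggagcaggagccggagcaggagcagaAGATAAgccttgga

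Kdr held 1 ETS word, CCGGAA, which 14.9% of all 32851 RefSeq mouse promoter windows also held. Etv2, itself an ETS factor, held 1 CAGGAA, and Tie1 held 1 as well, a word of 30.6% of all windows. The first Tal1 window held 1 GATA word and no ETS or SOX word. Tek held 2 ETS words, 1 GATA word and 1 SOX word. An ETS word stood in 4 of the 8 member windows (41.4% of all windows), a GATA word in 2 of 8 (18.6%) and a SOX word in 1 of 8 (28.6%). A match is a description of these letters, and no test was made.

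Library totals were 26722541 to 72981570 counts for the 9 mES libraries and 44049258 to 66543495 for the 60 sorted libraries, so that the members with the lowest levels rest on few reads: Cdh5 was at 0 counts in 1 WT-emiRFP library at 72 h, and Tie1 did not pass the filter on low counts at 72 h. Values below are counts divided by a size factor per library (normalized counts). Trp53, the gene mutated in the p53KO line, was at 8.33% to 11.4% of its WT-emiRFP mean in p53KO-emiRFP cells at the 6 times, and no library went against its label. A member was called where its edgeR adjusted p, over all genes tested, was under 0.05.

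In WT cells the members followed several courses rather than one. Over the mean of the 3 WT populations, WT-mCherry beside p53KO cells among them, all 10 members changed between 0 and 48 h, 7 of them downward, where 70.3% of all genes changed. From 48 to 72 h 7 members changed, 5 of them downward (all genes 66.8%). From 72 to 96 h 8 changed, 6 of them upward (all genes 58.7%), from 96 to 120 h 9 changed, 8 of them upward (all genes 56.9%), and from 120 to 144 h 7 changed, 6 of them upward (all genes 55.5%). The members' share stood near that of all genes from 48 to 72 h and above it at the other steps, where over 50% of all genes changed as well.

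**Figure D1:**
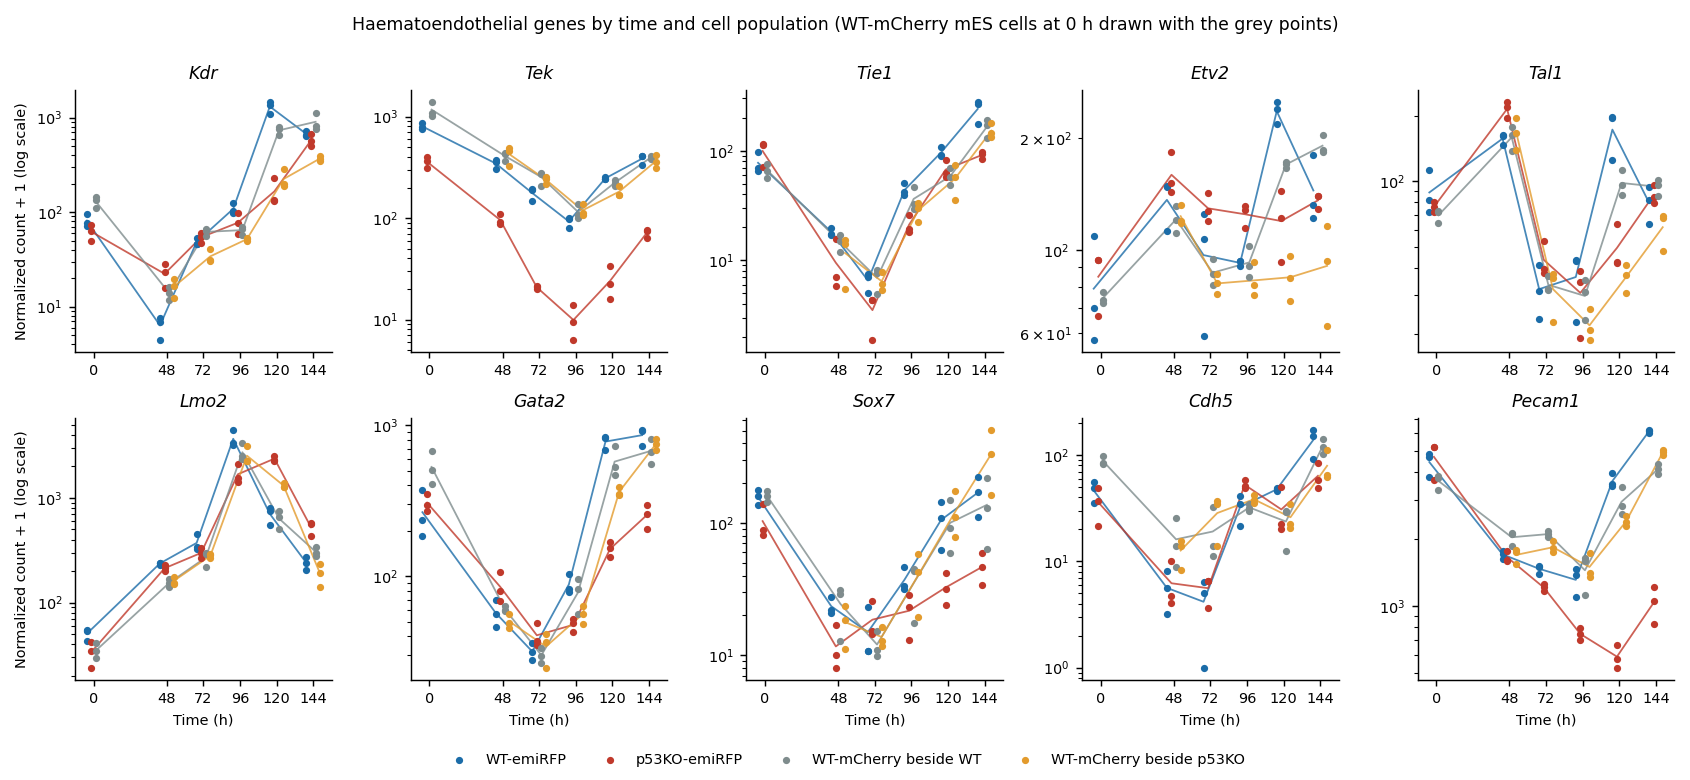
Normalized counts plus 1 (log axis) of each member against time in hours; each point is 1 library, lines join the means of 3 libraries, and colours mark the 4 populations. Kdr, Gata2 and Tal1 climb steeply from 96 to 120 h in WT-emiRFP cells (blue) and less in p53KO-emiRFP cells (red), Lmo2 peaks at 96 h in the 3 WT populations and at 120 h in p53KO-emiRFP cells, and Tek and Pecam1 are lowest in p53KO-emiRFP cells from 72 h on.

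Kdr, the VEGF receptor, fell to a trough at 48 h and then rose until 120 h. Its normalized counts in WT libraries were 70.4 to 142 (median 102) at 0 h, 3.46 to 18.6 (median 11.2) at 48 h, 48.9 to 124 (median 65.2) at 96 h, 186 to 1461 (median 748) at 120 h and 345 to 1118 (median 658) at 144 h. The steps of 0 to 48 h (−3.30 ± 0.18, adjusted p = 3.5e-24, as log2 fold change ± standard error) and 96 to 120 h (3.09 ± 0.11, adjusted p = 2.1e-32) were the widest of this gene. The WT range at 120 and 144 h spans populations that differ, as given below. The change from 120 to 144 h was 0.02 ± 0.09, adjusted p = 0.88. That value joins opposite moves of the means: from 1308 to 669 in WT-emiRFP, 733 to 901 in WT-mCherry beside WT and 223 to 369 in WT-mCherry beside p53KO cells. Steps within single WT populations were not tested.

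The other 2 receptors took different courses from Kdr. Tek, the angiopoietin receptor, was highest in mES cells, at 753 to 1391 (median 941). It fell at each step until 96 h, when it was at 79.1 to 137 (median 107), and then rose, and at 144 h it was at 312 to 417 (median 394). Tie1, its partner, was lowest at 72 h, at 3.96 to 7.14 (median 6.10), and rose at each later step, and at 144 h it was at 131 to 277 (median 175). Tie1 thus passed its level in mES cells, 55.8 to 97.2 (median 66.3), while Tek at 144 h stayed below its own: the WT ranges of 0 and 144 h did not overlap for either gene.

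Among the factors, Lmo2 stood out by its peak at 96 h. The adaptor was at 28.2 to 53.3 (median 41.0) at 0 h, at 2249.7 to 4474 (median 3106) at 96 h and at 140.2 to 335 (median 237) at 144 h. Its steepest step was that of 72 to 96 h (3.28 ± 0.10, adjusted p = 1.8e-35). Tal1, which Lmo2 joins in one complex, peaked at other times: it was 136 to 195 (median 161) at 48 h, 17.8 to 42.7 (median 24.9) at 96 h and 29.8 to 196 (median 94.9) at 120 h. Gata2, the third protein of that complex, was lowest at 72 h, at 23.8 to 40.4 (median 30.4), and rose by 2.92 on the log2 scale from 96 to 120 h. By the medians of all WT libraries the 3 members of this complex were each highest at a different time: Tal1 at 48 h, Lmo2 at 96 h and Gata2 at 144 h. For Tal1 this depends on the populations joined: in WT-emiRFP cells alone its mean was 156 at 48 h and 172 at 120 h, with overlapping libraries.

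Etv2, which is known to start the lineage, had the narrowest course by its medians. Its WT counts were 56.6 to 108 (median 71.9) at 0 h, 57.8 to 124 (median 85.2) at 72 h and 72.1 to 249 (median 169.6) at 120 h, with a rise from 96 to 120 h of 0.76 ± 0.11, adjusted p = 1.6e-08. Sox7 was at 135 to 176 (median 159) at 0 h, at 8.91 to 22.3 (median 10.8) at 72 h and at 62.8 to 504 (median 172) at 144 h, where the libraries lay farther apart than for any other factor. Its step from 48 to 72 h was called with the replicate number as a block (−0.70, adjusted p = 0.014) and without replicate 3 (adjusted p = 0.0092).

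Of the junction genes, Cdh5 fell from mES cells and rose late. It was 34.1 to 97.4 (median 67.5) at 0 h, 0 to 36.1 (median 12.9) at 72 h, 11.4 to 48.2 (median 28.7) at 120 h and 61.7 to 172 (median 110.0) at 144 h, and its last step was 1.87 ± 0.19, adjusted p = 2.3e-12. Pecam1 was abundant throughout, at 3336 to 4838 (median 3836) in mES cells, 1095 to 1737 (median 1403) at 96 h and 3928 to 6219.7 (median 4948) at 144 h. Per exonic kilobase, WT libraries at 144 h held 631 to 999 normalized counts of Pecam1, above every other member. Gata2 (102 to 173), Etv2 (59.0 to 193), Lmo2 (64.7 to 155), Tek (66.2 to 88.5), Kdr (38.3 to 124) and Sox7 (19.1 to 153) followed in the order of their medians, each overlapping the next. Tie1 (26.6 to 56.4), Cdh5 (14.7 to 40.8) and Tal1 (10.7 to 23.0) were lowest on this scale, and their ranges overlapped in that order too.

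The p53KO effect compares p53KO-emiRFP with WT-emiRFP cells at 1 time, as p53KO over WT, and it addresses what changes within cells that lack p53. The 2 populations came from different gastruloids, started from 25 and 150 cells of the line, so genotype and surroundings cannot be told apart here. Members were called most often from 96 h on, but at 144 h at a share near that of all genes (70% against 65.4%). The count at 96 h depended on replicate 1, as given below. Of the members tested, 1 of 10 was called at 0 h (all genes 6.14%), 4 of 10 at 48 h (all genes 22.1%) and 2 of 9 at 72 h (all genes 29.1%). The members' share at 48 h was above and at 72 h below that of all genes. At 96 h 2 were higher and 5 lower in p53KO cells, against 9.45% and 13.8% of all genes. At 120 h 1 was higher and 7 lower, against 27.3% and 23.7% of all genes, and at 144 h 1 was higher and 6 lower, against 33.2% and 32.2%. The members' median log2 fold change was −0.82 at 96 h, −1.76 at 120 h and −1.27 at 144 h, where that of all genes was −0.01, 0.05 and 0.01. Part of the members also stand in the study's own lineage marker panel for 120 h, so their selection was not independent of these samples.

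**Figure D2:**
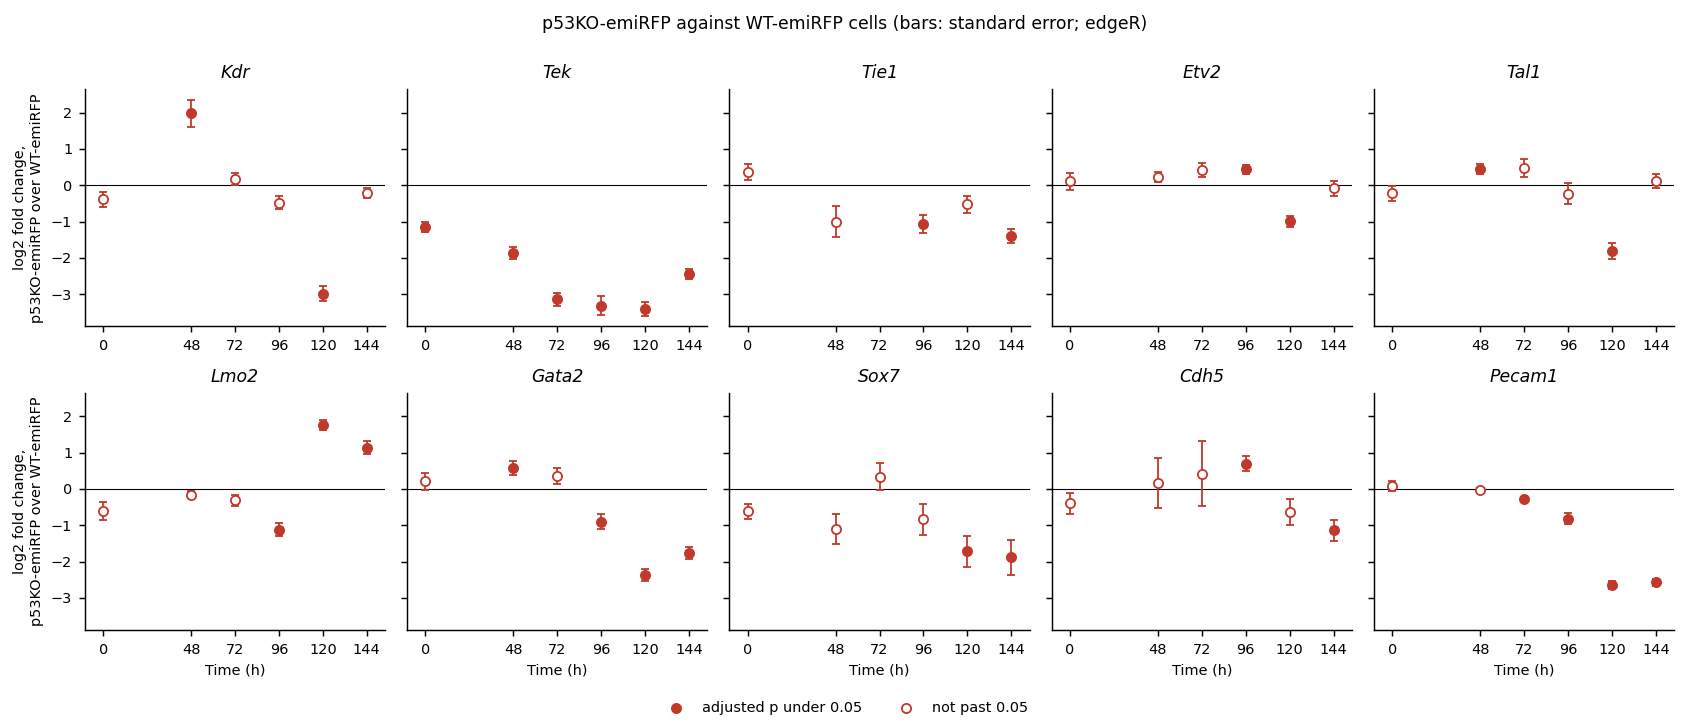
Log2 fold change of each member in p53KO-emiRFP over WT-emiRFP cells against time in hours, with bars for the standard error; filled points passed an edgeR adjusted p of 0.05. Tek is below 0 at all 6 times, Kdr, Etv2 and Tal1 dip at 120 h and return near 0 at 144 h, and Lmo2 changes from −1.13 at 96 h to 1.76 at 120 h.

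Tek was lower in p53KO cells at every time, mES cells included. At 0 h its normalized counts were 400.4, 363 and 311 in the 3 p53KO-emiRFP libraries and 859, 785 and 753 in the 3 WT-emiRFP libraries (log2 fold change −1.16, standard error 0.14, adjusted p = 2.2e-04). At 72 h they were 19.9, 20.5 and 19.0 against 146, 187 and 193 (log2 fold change −3.14, standard error 0.18, adjusted p = 7.1e-09), and at 120 h 21.5, 32.6 and 15.1 against 243, 242 and 252 (log2 fold change −3.39, standard error 0.19, adjusted p = 7.2e-09). The groups did not overlap at any of the 6 times, and Tek was 10.5-fold lower in p53KO cells at 120 h and 5.48-fold lower at 144 h. The angiopoietin receptor thus differed between the lines before gastruloids were formed. Its WT level was highest at that time (median 941), so in these libraries Tek is not particular to blood and vessel cells.

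Kdr was lower in p53KO cells at 120 h and not called at 144 h. At 120 h it had 131, 230.1 and 133 normalized counts in p53KO-emiRFP libraries and 1361, 1104 and 1461 in WT-emiRFP libraries, a 7.89-fold difference (−2.98 ± 0.21, adjusted p = 5.7e-08). At 144 h the values were 563, 494 and 662 and 713, 637 and 658, which overlap (log2 fold change −0.22, standard error 0.14, adjusted p = 0.17), although without replicate 3 Kdr was called lower (−0.35, adjusted p = 0.02). In p53KO cells Kdr rose by 1.10 from 96 to 120 h and by 1.79 from 120 to 144 h on the log2 scale, so that its steepest step came 1 interval later than in WT cells. At 48 h Kdr was higher in p53KO cells, at 26.9, 14.7 and 22.2 against 5.89, 6.63 and 3.46 (log2 fold change 1.98, standard error 0.37, adjusted p = 0.0013), a difference at low counts; at 96 h it was −0.48 ± 0.17, adjusted p = 0.06, which passed with the replicate number as a block (adjusted p = 0.011). Tie1 was called lower at 96 h (−1.07 ± 0.24, adjusted p = 0.005) and at 144 h, at 95.6, 93.2 and 83.4 against 267, 277 and 175 with the groups apart (−1.40 ± 0.20, adjusted p = 2.4e-05). With the block it was also called lower at 48 h (adjusted p = 0.041) and at 120 h (−0.53, adjusted p = 0.01). At 120 h Tie1 was called as well without the filter on low counts (adjusted p = 0.037) and with the compared libraries only (adjusted p = 0.03).

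Etv2 and Tal1 moved with Kdr at 120 h, and Lmo2 moved the other way. Etv2 had 143, 121 and 92.3 normalized counts in p53KO-emiRFP libraries at 120 h against 249, 218 and 239 in WT-emiRFP libraries (log2 fold change −0.99, standard error 0.15, adjusted p = 9.1e-05). Tal1 had 41.9, 62.5 and 41.1 against 196, 124 and 195 (log2 fold change −1.81, standard error 0.22, adjusted p = 9.4e-06). For both the groups were apart at 120 h, and both overlapped at 144 h, where Etv2 was −0.09 ± 0.20, adjusted p = 0.71 and Tal1 0.12 ± 0.19, adjusted p = 0.59. Etv2 had been higher in p53KO cells at 96 h (0.44 ± 0.13, adjusted p = 0.021) and Tal1 at 48 h (0.45 ± 0.13, adjusted p = 0.024), calls that were lost without replicate 1 or 2 for Etv2 (adjusted p = 0.17 and 0.16) and without replicate 2 or 3 for Tal1 (adjusted p = 0.11 and 0.16).

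Lmo2, the adaptor of the Tal1 and Gata2 complex, was 1414, 1540.4 and 2095 in p53KO-emiRFP libraries at 96 h against 3235, 3331 and 4474 in WT-emiRFP libraries (log2 fold change −1.13, standard error 0.18, adjusted p = 3.4e-04). At 120 h it was 2269, 2324 and 2535 against 809, 555 and 746 (log2 fold change 1.76, standard error 0.14, adjusted p = 1.7e-07), and at 144 h 562, 436 and 572 against 273, 237 and 203 (log2 fold change 1.14, standard error 0.17, adjusted p = 4.7e-05). The difference therefore changed sign between 96 and 120 h, with groups apart at all 3 times. In WT-emiRFP cells Lmo2 had fallen by 120 h while in p53KO cells it still rose from 96 to 120 h (0.50 ± 0.15, adjusted p = 0.0065), and it fell in p53KO cells from 120 to 144 h (−2.18 ± 0.16, adjusted p = 2.0e-16). At 72 h Lmo2 was −0.32 and was called with the block alone (adjusted p = 0.023).

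Gata2, Sox7 and Pecam1 were lower in p53KO cells at both 120 and 144 h. Gata2 had 205, 258 and 296 normalized counts at 144 h against 919.8, 932 and 729 (log2 fold change −1.77, standard error 0.16, adjusted p = 3.3e-07), after −0.90 at 96 h and −2.37 at 120 h, both called. It had been higher at 48 h (0.58 ± 0.19, adjusted p = 0.042), where the groups overlapped and the call was lost without replicate 2 or 3 (adjusted p = 0.36 and 0.19). With TMM scaling, by DESeq2 and with the compared libraries only Gata2 was not called at 48 h either (adjusted p = 0.051, 0.053 and 0.08). Pecam1 had 574, 669 and 526 at 120 h against 3459.9, 3979 and 3538 (log2 fold change −2.63, standard error 0.11, adjusted p = 4.4e-10) and was 5.94-fold lower at 144 h. The difference in this junction protein widened from −0.28 at 72 h to −0.81 at 96 h, both called, after −0.04 ± 0.07, adjusted p = 0.72 at 48 h. The call at 72 h was lost without replicate 2 (adjusted p = 0.069).

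Sox7, the SoxF factor, had 30.7, 40.8 and 23.1 normalized counts in p53KO-emiRFP libraries at 120 h against 109, 143 and 61.0 in WT-emiRFP libraries (log2 fold change −1.71, standard error 0.43, adjusted p = 0.0039), and 45.6, 58.1 and 33.0 against 172, 223 and 110.4 at 144 h (log2 fold change −1.88, standard error 0.48, adjusted p = 0.0035). In each population at these 2 times replicate 2 was highest and replicate 3 lowest. Without replicate 1 neither difference was called (adjusted p = 0.073 and 0.056), while with the block Sox7 was called at 0 h (adjusted p = 0.024), 48 h (adjusted p = 0.01) and 96 h (adjusted p = 0.013) as well, each time lower in p53KO cells. Cdh5 was higher in p53KO cells at 96 h (0.70 ± 0.21, adjusted p = 0.024) and lower at 144 h, at 57.7, 83.2 and 47.5 against 172, 152 and 91.3 (log2 fold change −1.14, standard error 0.29, adjusted p = 0.003). At 120 h Cdh5 was −0.62 with overlapping groups, called with the block (adjusted p = 0.043) and, at −1.23, without replicate 2 (adjusted p = 0.014).

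At 96 h the count of members called depended on replicate 1: without it 2 of 10 were called, Tek and Lmo2, while the share of all genes called went from 23.3% to 10.1%, and the adjusted p-values of the other 5 lay between 0.057 (Pecam1) and 0.17 (Etv2). Without replicate 3 Cdh5 was not called at 96 h (adjusted p = 0.24), nor was it by DESeq2 (adjusted p = 0.05) or with the compared libraries only (adjusted p = 0.057), and Etv2 was not without the filter on low counts (adjusted p = 0.064). At 144 h Cdh5 also lost its call without replicate 1 (adjusted p = 0.078). At 120 h the calls of Kdr, Tek, Etv2, Tal1, Lmo2, Gata2 and Pecam1 held without each replicate in turn.

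Within p53KO cells all 10 members changed between 0 and 48 h (all genes 59.5%), 7 between 48 and 72 h (all genes 46.4%) and 6 between 72 and 96 h (all genes 44.6%). From 96 to 120 h 7 changed, 6 of them upward (all genes 35%), and from 120 to 144 h 7 changed, 6 of them upward (all genes 22.7%). Etv2, the early ETS factor, was not called in any step after 48 h in p53KO cells, whereas Kdr was called in each, from 72 to 96 h not without replicate 1 or 3 (adjusted p = 0.58 and 0.1). Pecam1 went on falling from 96 to 120 h in p53KO cells (−0.34 ± 0.13, adjusted p = 0.032), the step at which it rose in WT cells (1.06 ± 0.07, adjusted p = 3.9e-20). That fall in p53KO cells was not called whichever replicate was left out, and the rises of Lmo2 (without replicate 1 or 2), Tal1 and Tek (both without replicate 2) at this step lost their calls too. Cdh5 at this step gained a call with the block (adjusted p = 0.023) and without replicate 2 (adjusted p = 0.015). Calls were also lost for Tie1 (without replicate 1 or 2), Lmo2 (without replicate 1) and Gata2 (without replicate 2) from 48 to 72 h, for Tek (without replicate 2) from 72 to 96 h, and for Cdh5 (without replicate 1 or 3) and Tal1 (without replicate 1) from 120 to 144 h.

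The change of the p53KO effect itself was tested between times. From 96 to 120 h it changed for 7 of 10 members (all genes 30.8%), in a test added after the data were seen: downward for Kdr, Etv2, Tal1, Gata2, Cdh5 and Pecam1 and upward for Lmo2 (2.88 ± 0.22, adjusted p = 5.2e-16). Cdh5 lost this call without replicate 1 or 3 (adjusted p = 0.18 and 0.35). From 120 to 144 h it changed for 5 of 10 (all genes 16.9%). It returned toward 0 for Kdr (2.76 ± 0.22, adjusted p = 5.0e-14), Tal1 (1.94 ± 0.29, adjusted p = 1.2e-06), Etv2 (0.90 ± 0.25, adjusted p = 0.0077) and Tek (0.94 ± 0.27, adjusted p = 0.0085), and moved further down for Tie1 (−0.88 ± 0.31, adjusted p = 0.039). For Lmo2 this last change was −0.62, called with the block (adjusted p = 0.02), with TMM scaling (adjusted p = 0.042) and without replicate 3 (adjusted p = 0.026). The calls of Tie1 without replicate 1 or 2, of Etv2 without replicate 2 or 3 and of Tek without replicate 3 were lost, at adjusted p-values of 0.061 to 0.31.

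The neighbour effect is the difference between WT-mCherry cells sorted from WT + p53KO gastruloids and WT-mCherry cells sorted from WT + WT gastruloids, and it addresses how WT cells respond to p53KO neighbours. Few members differed before 120 h. By edgeR 0 of 10 members were called at 48 h and 0 of 10 at 96 h, with 1 at an unadjusted p under 0.05 each time and 0 by DESeq2 (all genes 0.0736% and 3.92%), and 1 of 9 at 72 h, Kdr (all genes 0.559%). At 120 h 1 member was higher and 4 were lower beside p53KO cells, against 3.41% and 2.52% of all genes, and at 144 h again 1 was higher and 4 lower, against 10.1% and 15.5%.

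H2bc14, a histone gene that stood at 6.20 to 8.21 normalized counts in WT-mCherry and 9353 to 10517 in WT-emiRFP mES cells, was read as an upper estimate of RNA from emiRFP cells in the sorted WT-mCherry libraries. Its level, as a percent of that in the emiRFP cells of the same gastruloids, was 0.191% to 2.12% beside WT cells, and beside p53KO cells 0.299% to 0.410% at 48 h, 1.48% to 3.57% at 96 h, 3.01% to 7.46% at 120 h and 2.39% to 16.9% at 144 h. Each called value of the neighbour effect at 120 and 144 h is therefore given with its value after that share of the emiRFP cells' counts was subtracted.

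Kdr, Etv2 and Tal1, the members that were lower in p53KO cells at 120 h and not at 144 h, were lower in their WT neighbours at both times. Kdr had 186, 286 and 197 normalized counts beside p53KO cells and 748, 651 and 798 beside WT cells at 120 h (−1.71 ± 0.20, adjusted p = 4.8e-04, after subtraction −1.67). At 144 h the VEGF receptor had 394, 367 and 345 against 823, 763 and 1118 (−1.29 ± 0.14, adjusted p = 8.5e-05, after subtraction −1.39). Both times the groups were apart, and Kdr was 3.28-fold and 2.44-fold lower beside p53KO cells. Its lower value at 72 h, 29.2, 39.5 and 30.5 against 62.4, 54.6 and 65.3 (−0.87 ± 0.18, adjusted p = 0.048), lost its call whichever replicate was left out (adjusted p = 0.28 to 0.72).

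Etv2 had 95.5, 83.5 and 72.1 normalized counts beside p53KO cells at 120 h and 166, 172 and 169.6 beside WT cells (−1.01 ± 0.16, adjusted p = 0.0022, after subtraction −1.04). At 144 h it had 115, 92.8 and 61.8 against 182, 203 and 185 (−1.09 ± 0.20, adjusted p = 0.0019, after subtraction −1.16). Its rise from 96 to 120 h, seen in both WT populations of WT + WT gastruloids, is thus not visible in the libraries beside p53KO cells, which were 79.5, 92.0 and 74.8 at 96 h. Tal1 had 36.3, 40.2 and 29.8 against 111, 94.9 and 85.6 at 120 h (−1.45 ± 0.23, adjusted p = 0.0024, after subtraction −1.46) and was −0.63 ± 0.19, adjusted p = 0.025 at 144 h (after subtraction −0.71). The groups of Etv2 and Tal1 were apart at both times. Tal1 lost its call at 120 h without replicate 1 (adjusted p = 0.11) and at 144 h whichever replicate was left out (adjusted p = 0.083 to 0.12).

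Lmo2 was higher beside p53KO cells at 120 h and lower at 144 h. Its values at 120 h were 1274, 1394 and 1269 against 753, 503 and 649.9 (1.04 ± 0.14, adjusted p = 8.7e-04, after subtraction 0.97), and at 144 h 189.7, 232 and 140.2 against 299, 280.3 and 335 (−0.70 ± 0.18, adjusted p = 0.011, after subtraction −1.07). Beside p53KO cells the adaptor had been 2250, 2252 and 3106 at 96 h, so by 120 h it had fallen there too, but less than beside WT cells. At 144 h it was below its level beside WT cells. The call at 144 h was lost without replicate 1 (adjusted p = 0.086) or replicate 3 (adjusted p = 0.093). At 96 h Lmo2 was −0.11, called with the replicate block alone (adjusted p = 0.049).

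Gata2 and Sox7 were called at 1 time each, and leaving out a replicate ended the call. Gata2 was 346, 390.2 and 349.8 beside p53KO cells and 467, 725 and 530.1 beside WT cells at 120 h, with groups apart (−0.66 ± 0.15, adjusted p = 0.017, after subtraction −0.61), a call that was lost whichever replicate was left out (adjusted p = 0.056 to 0.12), and 0.14 ± 0.15, adjusted p = 0.53 at 144 h. Sox7 was 332, 504 and 162 against 129, 216 and 62.8 at 144 h (1.27 ± 0.42, adjusted p = 0.041, after subtraction 1.39), with overlapping groups but a higher value beside p53KO cells in each of the 3 replicate numbers. Without replicate 1 or 2 this was not called (adjusted p = 0.23 and 0.055), nor was it by DESeq2 (adjusted p = 0.053) or with the compared libraries only (adjusted p = 0.079).

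Tek, Tie1, Cdh5 and Pecam1 were not called in the neighbour effect at any time by the main test, but Pecam1 and Cdh5 were called under other settings. Tek, whose p53KO effect was the widest of the members at 120 h, had 206, 169 and 169.5 beside p53KO cells and 221, 236 and 208 beside WT cells (−0.29 ± 0.15, adjusted p = 0.32). Tie1 was −0.06 and −0.13 at 120 and 144 h. Pecam1 was −0.26 at 48 h and 0.25 at 144 h, and Cdh5 −0.62 at 144 h, 3 values that were called with the block (adjusted p = 1.3e-04, 0.013 and 0.014) and without the filter on low counts (adjusted p = 0.045, 0.0038 and 0.014). At 120 h Pecam1 was −0.29, called without the filter (adjusted p = 0.0055). At 144 h it was also called with TMM scaling (adjusted p = 0.048), with the compared libraries only (adjusted p = 0.021) and after subtraction (0.38, adjusted p = 0.0086). With the compared libraries only, calls were lost for Kdr at 72 h (adjusted p = 0.11), Gata2 at 120 h (adjusted p = 0.055) and Tal1 at 144 h (adjusted p = 0.053).

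**Figure D3:**
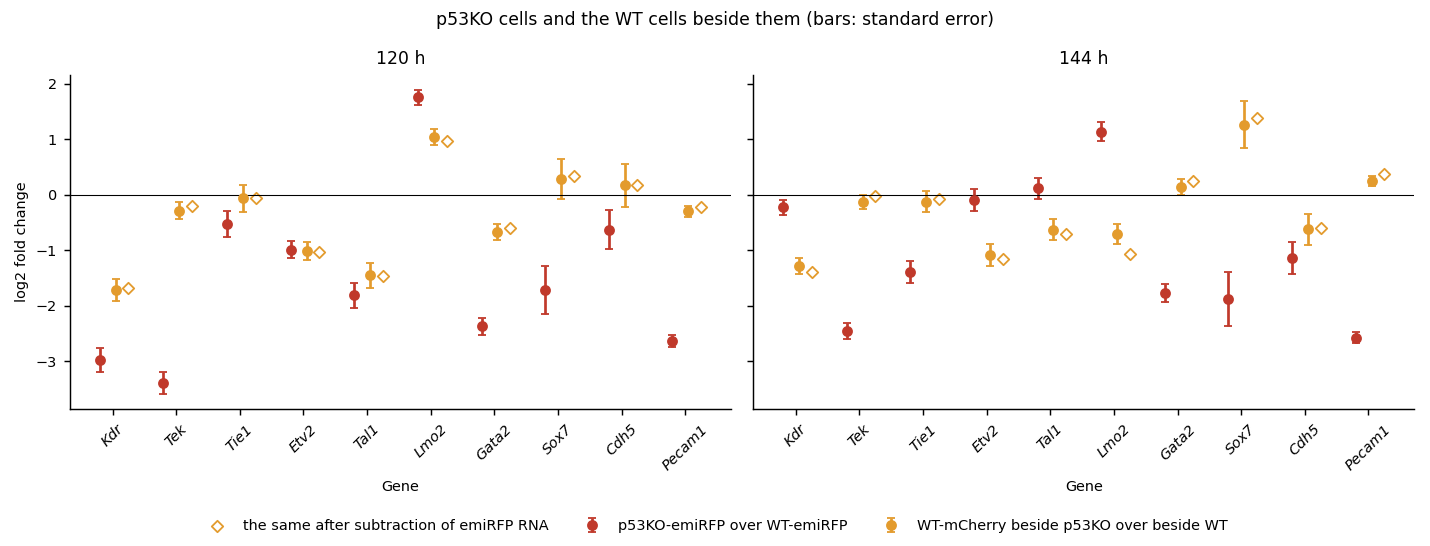
Log2 fold change of each member at 120 h (left) and 144 h (right): p53KO-emiRFP over WT-emiRFP cells (red) and WT-mCherry cells beside p53KO over beside WT cells (orange), with bars for the standard error, and the orange values after subtraction of emiRFP RNA (open diamonds). Kdr, Etv2, Tal1 and Lmo2 move the same way in both comparisons at 120 h, and Tek and Pecam1 lie between −0.29 and 0.25 in orange and below −2 in red.

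Whether p53KO cells and their WT neighbours differed from their own controls by unlike amounts was tested within each time, on comparisons that share no libraries but whose cells were sorted from the same gastruloids, so that they are not independent of each other. At 120 h the p53KO effect minus the neighbour effect was called for 6 of 10 members (all genes 33.1%): Kdr (−1.27), Tek (−3.11), Gata2 (−1.71), Sox7 (−2.00), Pecam1 (−2.34) and Lmo2 (0.71). For Etv2 this difference was 0.02 ± 0.21, adjusted p = 0.94 and for Tal1 −0.37 ± 0.32, adjusted p = 0.41, so that no difference between the 2 comparisons was detected for these factors. Without replicate 1 the calls of Kdr, Lmo2 and Sox7 were lost (adjusted p = 0.069, 0.08 and 0.17), and that of Lmo2 also without replicate 3 (adjusted p = 0.11).

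At 144 h 9 of 10 were called (all genes 62.1%), all but Cdh5. The difference was above 0 for Kdr (1.06 ± 0.20, adjusted p = 3.3e-04), Etv2 (1.00 ± 0.28, adjusted p = 0.0067), Tal1 (0.75 ± 0.26, adjusted p = 0.024) and Lmo2 (1.84 ± 0.25, adjusted p = 1.8e-05), the 4 members that were lower in the WT neighbours at that time. It was below 0 for Tek, Tie1, Gata2, Sox7 and Pecam1, at −1.27 to −3.14. The calls of Tal1 without replicate 1 or 3 and of Etv2 without replicate 2 were lost (adjusted p = 0.13, 0.12 and 0.076).

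In 2 further tests added after the data were seen, the neighbour effect itself changed from 96 to 120 h for 2 of 10 members (all genes 1.15%), Kdr (−1.39 ± 0.27, adjusted p = 0.0018) and Lmo2 (1.15 ± 0.21, adjusted p = 0.0011). Kdr lost this call without replicate 1 or 3 (adjusted p = 0.16 and 0.14), and Lmo2 without replicate 2 (adjusted p = 0.12). From 120 to 144 h it changed for 3 of 10 (all genes 7.62%): Lmo2 (−1.75 ± 0.24, adjusted p = 5.7e-07), Gata2 (0.81) and Pecam1 (0.54). The call of Lmo2 held without each replicate, those of Gata2 and Pecam1 did not. With the block Etv2 from 96 to 120 h (−0.86, adjusted p = 0.021) and Sox7 from 120 to 144 h (0.99, adjusted p = 0.035) were called as well.

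The WT clones differed in some members as well. The clone effect, WT-mCherry over WT-emiRFP cells of WT + WT gastruloids or mES cultures, was called for 4 of 10 members at 0 h (all genes 11.1%), 2 of 10 at 48 h (all genes 8.9%), 3 of 9 at 72 h (all genes 7.64%), 1 of 10 at 96 h (all genes 2.15%), 1 of 10 at 120 h (all genes 1.22%) and 2 of 10 at 144 h (all genes 23.8%). Kdr was called at 4 of the 6 times, higher in the WT-mCherry clone at 0 h (0.69) and 144 h (0.43) and lower at 96 h (−0.76) and 120 h (−0.84). Its clone effect at 120 h came from 748, 651 and 798 against 1361, 1104 and 1461 and lost its call without replicate 1 (adjusted p = 0.62) or replicate 3 (adjusted p = 0.34), and the calls at the other 3 times were lost whichever replicate was left out. Of the other calls in this comparison, those of Pecam1 at 72 and 144 h held whichever replicate was left out, and each of the rest was lost without at least 1 replicate. With the compared libraries only, the calls of Kdr at 0, 96 and 144 h (adjusted p = 0.055, 0.072 and 0.052) and of Tek at 72 h (adjusted p = 0.1) were lost too.

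Tek was higher in the WT-mCherry clone at 0 h (0.55) and 72 h (0.52), Gata2 at 0 h (1.00), and Cdh5 at 0 h (0.94) and 72 h (2.39). Lmo2 was lower in it at 48 h (−0.63). Pecam1 was higher in it at 48 h (0.26) and 72 h (0.52) and lower at 144 h (−0.56). With the block Kdr, Tek and Cdh5 were also called higher at 48 h (adjusted p = 0.027, 0.022 and 0.012), Lmo2 lower at 96 h (adjusted p = 8.6e-08), and 6 more members lower at 120 h, Tie1, Etv2, Tal1, Gata2, Cdh5 and Pecam1 (adjusted p = 8.2e-04 to 0.023), which made 7 of 10 at that time, where the same fit called 10.8% of all genes. At 144 h Tie1 and Gata2 were called lower and Etv2 higher (adjusted p = 0.0053, 0.035 and 0.048). By value, with no test of the difference, the clone effect at 120 h was wider than the p53KO effect for Cdh5 (−1.06 against −0.62) and Tie1 (−0.74 against −0.52), and narrower for the other 8 members, among them Tal1 (−0.82 against −1.81), Etv2 (−0.48 against −0.99), Kdr (−0.84 against −2.98) and Pecam1 (−0.31 against −2.63). The p53KO line is likewise a single clone, and no second p53KO clone was analysed here.

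Other genes of the pathway, from lists set together with the members, moved in part with them. At 120 and 144 h the median of all genes in the p53KO effect was 0.05 and 0.01 on the log2 scale of the values that follow. Of all genes 27.3% were higher and 23.7% lower in p53KO cells at 120 h and 33.2% and 32.2% at 144 h, and beside p53KO cells 3.41% and 2.52%, and 10.1% and 15.5%. The counts of each list stand against these shares. Of 17 further endothelial surface and junction genes, 11 of 15 tested were lower and 2 higher in p53KO cells at 120 h (median −1.20), and 13 of 16 were lower and 1 higher at 144 h (median −1.24). Eng, a co-receptor for TGF-β ligands, was −3.13 ± 0.10, adjusted p = 3.8e-11 and Mmrn2, a protein of the vascular matrix, −2.86 ± 0.10, adjusted p = 1.0e-10 at 144 h. Emcn, an endothelial sialomucin, was −4.78 ± 0.34, adjusted p = 6.2e-08 at 120 h. In the WT neighbours 0 of 15 were higher and 2 lower at 120 h, Emcn (−2.38) and the tight junction gene Cldn5 (−1.02), and 3 of 16 were higher and 3 lower at 144 h.

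Ligands and co-receptors of Kdr and Tek showed no common direction. Of 11 such genes 2 were higher and 4 lower in p53KO cells at 120 h (median −0.29), and 5 higher and 4 lower at 144 h (median 0.25). Nrp1, a co-receptor of Kdr, went from −0.97 at 120 h to 1.64 at 144 h. Flt1, which binds VEGF in competition with Kdr, was higher in the WT neighbours at 120 h (1.03 ± 0.25, adjusted p = 0.026) and 144 h (1.71 ± 0.39, adjusted p = 0.0062), where Kdr was lower. In the neighbour effect 3 of the 11 were higher and 1 lower at 120 h, and 3 higher and 4 lower at 144 h, among them Angpt1, the ligand of Tek (−2.39 ± 0.25, adjusted p = 7.1e-05).

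Of 12 other endothelial transcription factors, 3 were higher and 3 lower in p53KO cells at 120 h (median −0.29), and 7 higher and 3 lower at 144 h (median 0.88). Sox17 and Sox18, the other SoxF genes, were lower at 120 h (−1.24 and −1.85), as Sox7 was. The widest rises of the list at 144 h were in Foxc2 (4.27) and Foxc1 (3.32), forkhead genes that paraxial mesoderm also expresses. Beside p53KO cells 0 of 12 were called at 120 h and 2 higher and 6 lower at 144 h. Of 10 arteriovenous and Notch genes 7 were higher and 1 lower in p53KO cells at 120 h among 9 tested, led by the apelin receptor gene Aplnr (2.87), and 6 were higher and 3 lower at 144 h (medians 0.65 and 1.21). Beside p53KO cells 3 of 9 were higher and 0 lower at 120 h, and 0 higher and 2 lower at 144 h.

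Partners of the Tal1 complex other than the members gave 5 higher and 2 lower of 10 in p53KO cells at 120 h and 5 higher and 3 lower at 144 h (medians 0.15 and 0.27). Beside p53KO cells 0 of 10 were called at 120 h and 4, all lower, at 144 h. Runx1t1, a corepressor, was lower in p53KO cells at both times (−1.66 and −2.06), and Ssbp2, which binds the Lmo2 partner Ldb1, was higher (0.62 and 1.78). Of 12 blood regulators 3 were higher and 3 lower of 10 tested at 120 h, and 4 higher and 5 lower at 144 h (medians 0.09 and −0.36). Kit, the receptor for stem cell factor, was −1.23 and −1.27. In the neighbour effect 0 of 10 were called at 120 h and 2 of 12, both higher, at 144 h. Of 7 embryonic erythroid genes 6 did not pass the filter at 120 h and 4 did not at 144 h, so these libraries held little globin RNA. At 120 h 0 of 1 tested was called in either comparison, and at 144 h 0 of 3 beside p53KO cells. At 144 h 2 of 3 were higher in p53KO cells, Hba-x (3.55, mean 12.4 against 0.987 normalized counts) and Alas2 (0.87).

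Genes of the mesoderm from which the lineage arises were split. Of 8, 5 were higher and 3 lower in p53KO cells at 120 h and the same numbers at 144 h (medians 1.16 and 1.75). T (Brachyury), a factor of nascent mesoderm, was 2.79 ± 0.13, adjusted p = 8.4e-10 at 120 h, and Mesp1 2.26 ± 0.21, adjusted p = 9.3e-07, while Eomes was −2.73 ± 0.12, adjusted p = 8.4e-10. In the WT neighbours 3 were higher and 1 lower at 120 h, T (0.90), Mesp1 (1.49), Mixl1 (1.04) and Eomes (−0.88), each in the direction it had in p53KO cells, and 2 were higher and 0 lower at 144 h.

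Because some members also mark other cells, those cells' markers were summed per library. The 8 naive pluripotency markers, at 201980 to 217864 normalized counts in WT mES cells, summed to 61878 to 71723 in WT-emiRFP and 11159.8 to 11830.0 in p53KO-emiRFP libraries at 120 h, and to 81814 to 95577 and 13475 to 20516 at 144 h. All 8 were lower in p53KO cells at both times (medians −2.52 and −2.30), none of them was at 0, and Pecam1 and Tek were lower in the same libraries. The 6 germ cell markers, also places of Pecam1, summed to 4201 to 4645 in WT-emiRFP and 1206 to 1401 in p53KO-emiRFP libraries at 120 h and to 7069 to 7434 and 2246 to 2445 at 144 h, with 6 of 6 lower in p53KO cells each time (medians −2.29 and −1.93). At 0 h they summed to 4373 to 6132 in WT and 6225 to 6333 in p53KO mES cells, so this list does not tell germ cells from naive cells. In the neighbour effect 3 of the 8 naive markers were lower at 120 h and 0 were called at 144 h, and of the germ cell markers 1 was lower at 120 h and 3 were higher and 1 lower at 144 h. The part of these cells in the values of Pecam1 and Tek was not tested.

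Sox7 moved with the markers of extraembryonic endoderm. The sum of these 8 genes was 1687 to 1817 in p53KO-emiRFP, 3520.2 to 7247 in WT-emiRFP, 3989.6 to 13370.4 in WT-mCherry beside p53KO and 3474 to 7187 in WT-mCherry beside WT libraries at 144 h, and at 120 h 1084 to 1179, 1325 to 2978, 2613 to 4325 and 1589 to 3068 in the same order. The library with the highest Sox7, at 504 normalized counts, was also the one with the highest sum. In p53KO cells 4 of 7 markers tested were lower at 120 h and 5 of 7 at 144 h (medians −0.98 and −1.20), and in the WT neighbours 0 of 7 were called at 120 h and 2, Amn and Gata4, were higher at 144 h. Ttr and Afp were at 0 in all p53KO-emiRFP libraries at 120 h. The part of such cells in the values of Sox7 was not tested.

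**Figure D4:**
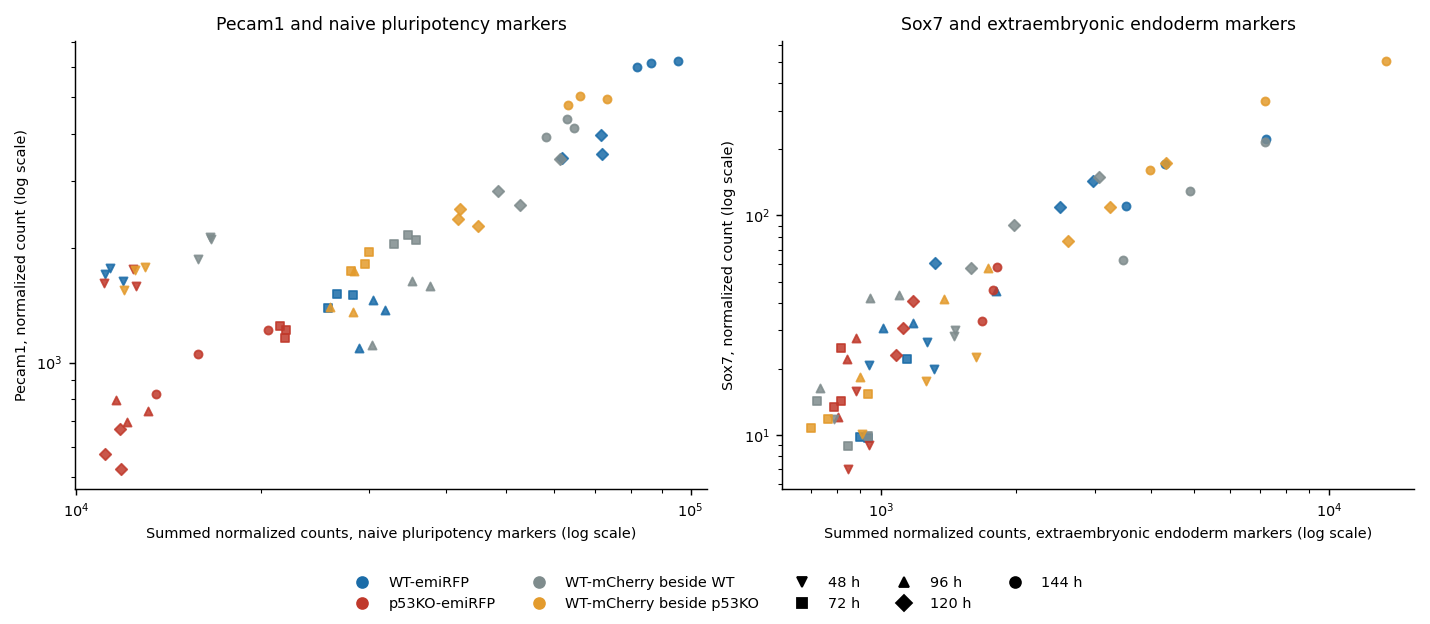
Normalized counts of Pecam1 against the summed naive pluripotency markers (left) and of Sox7 against the summed extraembryonic endoderm markers (right) in the 60 sorted libraries, both axes logarithmic; colours mark populations and shapes mark times. Pecam1 lies at the upper right in WT libraries at 144 h and at the lower left in p53KO-emiRFP libraries from 96 h on, with the 48 h libraries apart at the left. Sox7 is highest, at 504, in the library with the highest sum.

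Markers of spinal interneurons and of surface ectoderm, cells that also use Gata2, moved less evenly. The 8 interneuron markers summed to 1444 to 1492 in p53KO-emiRFP and 3194 to 3237 in WT-emiRFP libraries at 144 h, and to 2231 to 2499.6 and 1988 to 2246 at 120 h. Of the 8, 3 were higher and 2 lower in p53KO cells at 120 h, and 2 higher and 3 lower at 144 h (medians 0.30 and −0.48). In WT neighbours 2 were higher at 120 h, and 3 higher and 3 lower at 144 h. The 7 surface ectoderm markers summed to 5409.8 to 7069 in p53KO-emiRFP and 13319 to 15955 in WT-emiRFP libraries at 144 h, with 1 higher and 3 lower at 120 h and 1 higher and 4 lower at 144 h (medians −0.36 and −0.77). In WT neighbours 1 was higher and 1 lower at 120 h, and 2 were higher and 1 lower at 144 h. Their part in the values of Gata2 and Tal1 was not tested.

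The genes whose pattern over all 69 libraries was most like that of a member were mostly not other members. By Pearson correlation of log2(normalized count + 1), among genes with a mean of at least 50 normalized counts, Kdr was most like Tspan9, Olig3 and Adgra2 (r = 0.93, 0.92 and 0.92), Gata2 like Plcd1, Phf13 and Aldh3b2 (r = 0.96, 0.95 and 0.95), and Lmo2 like Cyp4f15, Col24a1 and Rftn1 (r = 0.96 each). Pecam1 was most like Map7, Rbm47 and Sh3tc1 (r = 0.97, 0.96 and 0.96), and Tek like Zscan4-ps1, Zscan4e and Gm21761 (r = 0.95, 0.94 and 0.94), of which the Zscan4 genes are near-identical copies whose counts are uncertain. Sox7 was most like Mok, Stra8 and Grasp (r = 0.93, 0.92 and 0.92) and Tal1 like Wt1, Cgnl1 and Lsm14b (r = 0.88, 0.84 and 0.83). For Cdh5 (Tnnt3, Clip4 and Bgn, r = 0.82, 0.80 and 0.80) and Etv2 (Fdft1, Skida1 and Galnt16, r = 0.67, 0.67 and 0.66) the likeness was lower. These points share time points, populations and experiments, so the values describe these libraries only. Among the members themselves, over the 45 sorted WT libraries, Tie1 and Gata2 (r = 0.92), Tie1 and Sox7 (r = 0.91) and Gata2 and Sox7 (r = 0.91) were most alike, and Tek and Lmo2 were most opposed (r = −0.90).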

How the data were processed

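The authors deposited 1 table of raw counts per gene symbol for 69 bulk RNA-seq libraries. Per the labels and the study's methods, reads were trimmed with Trim Galore 0.6.7 and aligned and counted with STAR 2.7.11b on GRCm38.p6 with Gencode v.25 genes. The kit keeps strand, and which strand column was counted is not given in the sources used here. Library totals were 26722541 to 72981570 counts, and 1 mES library was the lowest, so low members there have the fewest reads.

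Counts were divided by median-of-ratios size factors over all 69 libraries and tested by edgeR 4.0.16 (quasi-likelihood, R 4.3.3), with Benjamini-Hochberg adjustment over all genes that passed filterByExpr (minimum count 10) and a threshold of 0.05. The standard error is the log2 fold change divided by the square root of F. Each time was fitted alone with all groups of that time, and changes over time and differences between effects were fitted over the 69 libraries. The time step in WT cells is the mean over the WT populations present. Replicates came from separate experiments. Same-numbered libraries deviated together in every pair of the p53KO effect (correlations 0.118 to 0.494 over 14078 genes), so the numbers pair these samples, and values from a second fit, which adds that number as a blocking term, stand beside members' results whose calls it changes or, where not every pair deviated together, in the closing section. On simulated counts for the p53KO effect at 120 h (18535 genes) the fit recovered 98% of 200 genes changed by 2-fold. The changed genes had a mean of at least 50 normalized counts, and all genes were given the same spread. Recovery at lower counts or with a wider spread, as for Sox7, was not tested.

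Alternatives were TMM, no filter on low counts, DESeq2 1.42.0, the compared libraries only, the block, leaving out each replicate, and subtraction of emiRFP RNA scaled by H2bc14. The members and the lists of other genes were chosen with earlier results of these data known. Named genes of these lists are the up to 4 called genes with the widest change in each comparison, and a part of them is described in the text. For likeness the 3 genes with the highest correlation are named, among genes with a mean of at least 50 normalized counts. Those of Tie1 are not reported here. The lists were VEGF and angiopoietin partners, endothelial transcription factors, endothelial surface and junction genes, arteriovenous and Notch genes, partners of the Tal1 complex, blood regulators, embryonic erythroid genes, upstream mesoderm, naive pluripotency, germ cells, extraembryonic endoderm, spinal interneurons and surface ectoderm. Columns of the authors' own comparisons were not part of the table. Likeness was computed with Python 3.11.15 and numpy 2.4.6 on log2(normalized count + 1).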

Additional observations from a re-analysis of the deposited data

Results flagged for a closer look

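Groups of 3 libraries are too small for a test of single outlying libraries, and 31 values stood out instead because the same comparison gave different results at neighbouring times. For 17 of them the difference itself was tested in the fit of all 69 libraries by edgeR and passed an adjusted p of 0.05; 12 of these come from tests added after the data were seen. On the log2 scale, the p53KO effect changed from 96 to 120 h by −2.50 for Kdr, −1.42 for Etv2, −1.58 for Tal1, −1.47 for Gata2, −1.33 for Cdh5, −1.82 for Pecam1 and 2.88 for Lmo2. From 120 to 144 h it changed by 2.76 for Kdr, 1.94 for Tal1, 0.90 for Etv2, 0.94 for Tek and −0.88 for Tie1. The neighbour effect changed from 96 to 120 h by −1.39 for Kdr and 1.15 for Lmo2, and from 120 to 144 h by −1.75 for Lmo2, 0.81 for Gata2 and 0.54 for Pecam1.

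In 14 further cases every same-numbered pair went one way at one time and the other way at the next, and the difference was not tested. In the p53KO effect these were Kdr (2.21) and Tie1 (−1.42) from 0 to 48 h, Sox7 (1.43) from 48 to 72 h, and Kdr (−0.67), Gata2 (−1.23) and Sox7 (−1.19) from 72 to 96 h. In the neighbour effect it was Kdr (−1.06) from 48 to 72 h. In the clone effect these were Pecam1 (0.53) from 0 to 48 h, Kdr (−1.09) from 72 to 96 h, Pecam1 (−0.45) from 96 to 120 h, and Kdr (1.24), Etv2 (0.89), Tal1 (1.04) and Lmo2 (0.51) from 120 to 144 h. Many of these values rest on differences that were not called at one of the times.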

How the results depend on the processing

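Over 2160 values of single members under the alternatives, 1977 kept their direction and their side of the threshold or were called in neither fit, 109 lost a call, 74 gained one and 0 called values changed sign; 58 values called in neither fit changed sign. Gained and lost calls were 2 and 1 with TMM, 4 and 3 with DESeq2 (adjusted p-values it did not give were left out), 18 and 1 without the low-count filter, 3 and 10 with the compared libraries only, 1 and 0 after subtraction of emiRFP RNA, and 33 and 0 with the replicate block. Leaving out replicates 1, 2 and 3 lost 36, 31 and 27 calls and gained 3, 5 and 5. The cause of these changes was not tested, apart from the fewer libraries when a replicate is left out.

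Counts of members called moved by over 1.5 times in these cases. With the replicate block they were 2 (p53KO effect, 0 h), 1 and 1 (neighbour effect, 48 and 96 h), and 5, 2, 7 and 5 (clone effect, 48, 96, 120 and 144 h). Without the filter they were 2 (p53KO effect, 0 h), 1 (neighbour effect, 48 h), and 2, 6 and 4 (clone effect, 96, 120 and 144 h). With the compared libraries only they were 0 (neighbour effect, 72 h), and 1, 0 and 1 (clone effect, 72, 96 and 144 h), and with DESeq2 3 (clone effect, 120 h). Leaving out 1 replicate gave 1 to 2, 2 to 4, 1 to 2 and 2 to 6 for the p53KO effect at 0, 48, 72 and 96 h. It gave 0 to 0, 3 to 4 and 2 to 3 for the neighbour effect at 72, 120 and 144 h, and 0 to 4, 0 to 1, 1 to 2, 0 to 1, 0 to 4 and 1 to 2 for the clone effect from 0 to 144 h. For differences between effects it gave 3 to 5 (p53KO, 144 minus 120 h), 1 to 1 (neighbour, 120 minus 96 h), 1 to 2 (neighbour, 144 minus 120 h) and 3 to 6 (p53KO minus neighbour, 120 h), and for the step from 96 to 120 h in p53KO cells 4 to 6.

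The number of all genes called, given as a share of those tested, also moved by over 1.5 times. With the replicate block it was 9.79%, 41.1% and 38.6% for the p53KO effect at 0, 48 and 96 h, 4.94%, 2.27%, 20.8% and 20.2% for the neighbour effect at 48, 72, 96 and 120 h, 1.96% and 12.2% for the change of the neighbour effect from 96 to 120 and from 120 to 144 h, and 17.3%, 28.9%, 16.2%, 15.9% and 10.8% for the clone effect from 0 to 120 h. With the compared libraries only it was 0.0288%, 0.256%, 1.56% and 2.89% for the neighbour effect at 48, 72, 96 and 120 h and 3.24%, 0.932% and 0.366% for the clone effect at 72, 96 and 120 h. With DESeq2 it was 0.289%, 1.58% and 6.70% for the neighbour effect at 48, 72 and 96 h and 4.14% and 3.43% for the clone effect at 96 and 120 h, and without the filter, which tests more genes, 0.255%, 0.931%, 4.28% and 5.12% for the neighbour effect from 48 to 120 h and 2.97% and 2.32% for the clone effect at 96 and 120 h. Leaving out 1 replicate gave 1.35% to 9.99%, 9.87% to 15.5%, 14.8% to 24.1% and 10.1% to 19.0% for the p53KO effect at 0, 48, 72 and 96 h, 0% to 0.0338%, 0% to 0.219%, 0% to 3.22%, 0.736% to 3.22% and 11.8% to 15.6% for the neighbour effect from 48 to 144 h, and 0.640% to 14.3%, 1.87% to 5.52%, 0.937% to 7.91%, 0.163% to 1.71%, 0.0947% to 1.62% and 11.1% to 15.0% for the clone effect from 0 to 144 h. It gave 19.8% to 24.1% and 8.27% to 12.6% for the later 2 changes of the p53KO effect, 0.189% to 0.467% and 1.73% to 5.80% for those of the neighbour effect, 14.03% to 29.5% for their difference at 120 h, and 13.4% to 17.5% for the last step in p53KO cells. Correlations of same-numbered libraries went below those of the p53KO effect in the neighbour effect at 120 h (lowest 0.072). They did so too in the clone effect at 0 h (0.086) and 72 h (0.038), so the pairing is least certain there. In the neighbour effect at 120 h the block gained a call of Pecam1 (−0.29, adjusted p = 8.3e-04). In the clone effect it gained Pecam1 at 0 h (−0.28, adjusted p = 0.034) and Lmo2 at 72 h (−0.46, adjusted p = 0.0072). Lmo2 was called there by DESeq2 (adjusted p = 0.029) and without the filter (adjusted p = 0.0068) as well. Counts were few for Cdh5 at 48 and 72 h and for Tie1 at 72 h, which did not pass the filter in the fit of that time.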
